A study of Mus musculus with 12 samples.

Results

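The regenerating islet-derived (Reg) genes encode small secreted C-type lectins, and 7 of them are described here: Reg1, Reg2, Reg3a, Reg3b, Reg3d, Reg3g and Reg4. They were found by symbol among the 55536 genes of the count table of the mouse islets. Of the 7 genes, 6 had enough counts to be tested among 19800 genes, and Reg4 did not. Pancreatic islets of 16-week-old mice on a mixed strain background of C57BL/6J were sequenced as total RNA in 12 libraries, 3 in each of 4 groups. The groups were untreated islets of controls (genotype PTPN2 fl/fl, titled +/+), control islets given TNF-alpha, IL-1beta and IFN-gamma together for 24 h in culture, and untreated and cytokine-treated islets labelled PTPN2 -/- and called Ptpn2-bKO. Ptpn2 encodes a phosphatase that switches off JAK and STAT proteins, and the series title names beta cells under inflammatory stress as its subject. The sources used here do not give the Cre driver, the cells it acts in or the deleted exons.

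Per the protocols, 3 mice of each genotype gave the 6 libraries of that genotype, so some libraries share a mouse, and the labels do not say which. The p-values below therefore measure the spread between these libraries, part of which may be technical. Libraries held 47064061 to 107515565 counts. Ins1 and Ins2, the insulin genes, took 12.2% to 14.9% of the counts in 11 libraries and 8.15% in replicate 2 of the cytokine-treated islets labelled bKO, so the islet label fits its defining markers. Counts over the whole Ptpn2 gene were not lower in islets labelled bKO. Ptpn2 stood at 30.3 to 31.5 CPM (a level: counts scaled to a common library size) in untreated controls and at 33.8 to 36.7 CPM in untreated islets labelled bKO, so the libraries did not overlap and those labelled bKO were the higher ones, against the direction of a loss, without passing the threshold (log2 0.19, adjusted p = 0.989, edgeR). Below, bKO is used as a label only.

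Reg proteins were first studied in the regenerating and inflamed pancreas. Acinar cells, the enzyme-secreting cells of the exocrine pancreas, are their main pancreatic source, and islets can make some of them under stress. Interleukin-6 and interleukin-22 induce Reg3 genes through receptors coupled to JAK kinases and STAT3, and the secreted lectins bind bacteria or act on epithelial cells, with Extl3 proposed as a receptor. Reg1 encodes a lectin also named lithostathine, and Reg2 is its close relative in mice. Reg3b was first described as a pancreatitis-associated protein, Reg3g is a bactericidal lectin of the gut, Reg3a and Reg3d are further type 3 members, and Reg4 is a more distant member known from secretory cells of the gut.

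Of the 7 genes, 6 lie side by side on chromosome 6 (GRCm38). Reg3b is at chr6:78370657-78373466 on the plus strand, Reg3d at chr6:78375874-78378865 on the minus strand, and Reg3a at chr6:78380709-78383827 on the plus strand. They are followed by Reg2 at chr6:78395623-78408106 and Reg1 at chr6:78422711-78428667, both on the plus strand, and by Reg3g at chr6:78466269-78468872 on the minus strand. The cluster spans 98.2 kb with 0 other annotated genes inside it. Its nearest coding neighbours are Ctnna2, 391 kb to the left, and Gm20594, 1349 kb to the right. Reg4 lies apart on chromosome 3, at chr3:98222156-98236748.

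The coding transcripts of the family are similar but not copies. Aligned bases were identical in 78.9% between Reg1 and Reg2, in 72.8% between Reg3a and Reg3b and in 72.2% between Reg3b and Reg3g. The longest run of identical bases between any pair was 35, between Reg3b and Reg3g, and no pair shared a stretch of 50 bases (0%). A perfectly matching stretch of 50 bases from one of these transcripts thus fits none of the others. The sources used here give neither the read length nor the strand setting of the counts.

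Because the clustered genes moved together in these libraries, the sequences around 3 of their starts are shown. They are those of Reg3b, Reg3a and Reg3g. Reg3b had the highest mean per kilobase of coding transcript in untreated controls. Reg3a fell most with cytokines in control islets, and Reg3g rose with them in islets labelled bKO. Each sequence runs from 250 bases before to 50 bases after the start given by RefSeq (GRCm38.p6), at chr6:78370635-78370934 (plus strand), chr6:78380459-78380758 (plus strand) and chr6:78468825-78469124 (minus strand). The RefSeq start of Reg3b lies inside the span given above, which comes from the gene annotation. Capitals mark matches, on either strand, to CACCTG and TTTCCC, the E-box and TC-box letters of the acinar factor complex PTF1, and to TATAAA.
Reg3b: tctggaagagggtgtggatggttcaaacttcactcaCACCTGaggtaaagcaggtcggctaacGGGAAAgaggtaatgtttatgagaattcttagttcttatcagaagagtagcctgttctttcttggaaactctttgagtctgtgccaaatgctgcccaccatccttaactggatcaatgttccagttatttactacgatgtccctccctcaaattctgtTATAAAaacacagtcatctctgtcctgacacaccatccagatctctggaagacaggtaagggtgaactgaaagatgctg
Reg3a: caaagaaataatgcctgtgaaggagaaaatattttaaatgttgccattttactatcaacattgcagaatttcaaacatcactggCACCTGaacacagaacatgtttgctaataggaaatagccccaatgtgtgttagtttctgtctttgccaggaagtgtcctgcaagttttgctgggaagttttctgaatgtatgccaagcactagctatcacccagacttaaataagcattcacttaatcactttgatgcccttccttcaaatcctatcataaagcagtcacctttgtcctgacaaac
Reg3g: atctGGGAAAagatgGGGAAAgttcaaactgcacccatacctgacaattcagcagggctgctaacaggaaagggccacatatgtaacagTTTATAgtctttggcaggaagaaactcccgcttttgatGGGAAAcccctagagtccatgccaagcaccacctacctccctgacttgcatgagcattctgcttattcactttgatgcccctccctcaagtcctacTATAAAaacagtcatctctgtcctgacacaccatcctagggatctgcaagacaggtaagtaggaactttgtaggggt

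All 7 genes had an entry in the RefSeq table. CACCTG was present in the windows of 5 of the 7 genes (all but Reg1 and Reg3g), against 20.2% of 32851 windows of the same length. TTTCCC was present in 4 of 7 (background 25.2%) and TATAAA in 4 of 7 (background 13.6%), the latter between -30 and -27 from the start in Reg1, Reg2, Reg3b and Reg3g. The STAT letters TTCNNNGAA occurred in 2 of 7 (background 8.3%), in Reg3b at -129 and in Reg3d at -238, where they overlap a TTTCCC match. A loose NF-kB motif was also searched and was found in 1 of 7 (background 50.8%), in Reg3g at -123 over a TTTCCC match, and an interferon response motif in 0 of 7 (background 3.44%). Positions are those of a match's first base, counted from the start. The windows of Reg3b and Reg3g were 69.9% identical over 296 aligned bases and shared a run of 29 bases. A match describes letters in this window and not a bound site.

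In untreated control islets Reg3b, Reg1 and Reg2 were the abundant members. Per kilobase of coding transcript, Reg3b stood at 450.2 CPM (SD 152, n = 3), Reg1 at 387 (SD 153) and Reg2 at 381 (SD 88.9), and these 3 levels did not differ beyond their spread. Reg3a (42.0 CPM per kb, SD 26.6) and Reg3g (32.5, SD 11.7) came next and did not differ beyond their spread, and Reg3d was lowest at 13.4 (SD 4.41). The length used is that of the longest coding transcript. All exons of a gene together are longer for Reg3b (1142 against 783 bases), Reg2 (952 against 698) and Reg3g (2114 against 771). The order among the 3 abundant genes, and of Reg3g against Reg3d, therefore depends on this choice. The 3 abundant genes were also the highest in each of the other groups. With cytokines Reg3g (16.3 CPM per kb in controls, SD 9.1) stood above Reg3a (2.42, SD 0.87). Reg4 had 0 to 2 counts in each library. Its 3 counts over the untreated controls and 0 counts in cytokine-treated islets labelled bKO are at or under the 3 counts that a count of 0 allows, which is 0.0196 CPM over the latter group (counting error only), so no change of Reg4 was detectable at this depth.

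In control islets, cytokines lowered 5 of the 6 tested Reg genes, and Reg3g did not pass the test. Reg3a and Reg3d, the type 3 genes at low level, fell most, by log2 4.11 and 3.22. Reg2 fell by log2 2.51, and the abundant Reg3b and Reg1 fell by log2 1.81 and 1.78. Over all genes tested, 33.9% were called lower in this comparison and 60.6% were called in either direction, so most of the transcriptome moved beside the family. The 5 genes had no overlap between groups, as did 40.0% of all genes in that direction.

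Reg3a was at 25.7, 18.7 and 59.7 CPM in the untreated control libraries (replicates 1 to 3) and at 1.24, 2.67 and 2.07 CPM in those given cytokines. The lowest untreated library was thus well above the highest treated library, and the fitted fall was 17.2-fold (log2 -4.11, SE 0.78, adjusted p = 0.00076). Adjusted p here and below are from edgeR, corrected by the method of Benjamini and Hochberg, unless another tool is named. Reg3d went from 9.37, 7.68 and 14.3 CPM to 0.863, 1.33 and 1.14 CPM, a 9.33-fold fall (log2 -3.22, SE 0.72, adjusted p = 0.00236) that rests on 52 to 129 counts in the treated libraries. Reg2, the relative of Reg1, went from 253, 212 and 334 CPM to 31.4, 64.6 and 44.2 CPM, a 5.68-fold fall (log2 -2.51, SE 0.63, adjusted p = 0.00499). All 3 genes kept their call when each library in turn was left out.

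Reg3b, the pancreatitis-associated protein gene, went from 356, 231 and 470 CPM to 67.2, 148 and 85.6 CPM (log2 -1.81, SE 0.61, adjusted p = 0.0227). Reg1 went from 381, 199 and 469 CPM to 79.7, 146 and 79.6 CPM (log2 -1.78, SE 0.62, adjusted p = 0.0262). Replicate 2 was the lowest untreated and the highest treated library for both genes. Reg3g, the bactericidal lectin gene, was at 24.9, 16.2 and 34.2 CPM untreated and at 7.98, 20.7 and 8.99 CPM with cytokines, and these groups overlapped (log2 -0.99, 95% interval -2.32 to 0.33, adjusted p = 0.175). The calls of Reg1 and Reg3b were the fragile ones. Only 3 of the 6 genes were called without untreated control replicate 3 (Reg1 adjusted p = 0.0811, Reg3b 0.0713), without treated control replicate 1 (0.0838 and 0.0806) or without treated control replicate 3 (0.085 and 0.0723), and Reg1 was also lost without untreated control replicate 1 (0.0588).

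**Figure D1:**
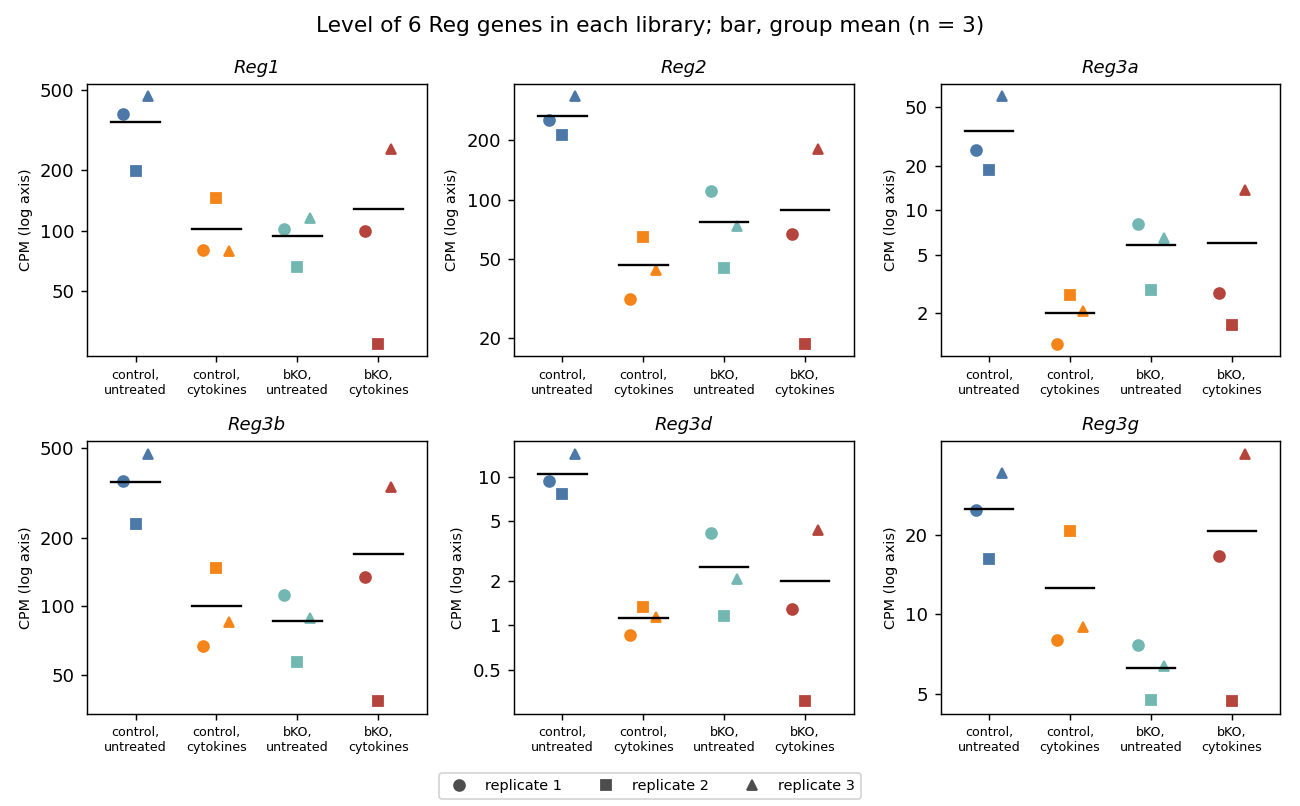
Level of each tested Reg gene in every library, in CPM on a log axis, with a bar at the mean of the 3 libraries of each group. All untreated control libraries lie above all treated control libraries for 5 genes, and above all untreated libraries labelled bKO for 6 genes, while the treated islets labelled bKO spread up to 14.1-fold.

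Acinar RNA moved in the same direction. Of 30 acinar marker genes 27 passed the filter, and 22 of them fell with cytokines in control islets, beside 33.9% of all genes called lower. Their median was log2 -2.25, against a median of -2.16 for the 6 Reg genes and -0.10 for all genes tested. Cela1, an elastase, fell by log2 4.08 (SE 0.37) and Bhlha15, a transcription factor of secretory acinar cells, by log2 2.23 (SE 0.16). Bhlha15 did not follow the summed markers in every comparison. It was at 47.7 CPM (SD 5.0) in untreated controls and 50.8 (SD 2.5) in untreated islets labelled bKO, where the summed markers were lower. The summed level of the 27 markers ranged from 5634 to 9197 CPM in untreated and from 1185 to 1947 CPM in treated control libraries. Ctrc, a chymotrypsin gene, was near 0 in treated controls (log2 CPM as low as -4.68), and the 3 markers that did not pass the filter (Prss1, Cela3a and Amy2a5) had 8 to 25 counts over the untreated and 1 to 12 over the treated controls. How far this acinar fall takes part in the fall of the Reg genes was not tested, and levels relative to these markers are given below. In bulk RNA, fewer acinar cells and less Reg RNA per cell cannot be told apart.

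In islets labelled bKO, cytokines raised Reg3g and changed no other Reg gene past the threshold. Reg3g was at 7.66, 4.76 and 6.34 CPM untreated and at 16.6, 4.69 and 40.6 CPM with cytokines. Its fitted rise was 3.29-fold (log2 1.72, SE 0.63, adjusted p = 0.0315), beside 28.8% of all genes called higher and 62.4% called in either direction. The groups overlapped, since replicate 2 of the treated islets was lower than every untreated library, and the call is a weak one. It was lost without treated replicate 3 (log2 0.76, adjusted p = 0.251) and without each of the 3 untreated libraries of this genotype (adjusted p = 0.0561, 0.0995 and 0.0766), with scaling by library totals alone (adjusted p = 0.0545) and in limma-voom (adjusted p = 0.179), whereas DESeq2 made it (adjusted p = 0.0179).

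Reg3b was at 112, 57.0 and 88.6 CPM in the untreated libraries labelled bKO and at 135, 38.3 and 336 CPM in the treated ones (log2 0.98, SE 0.60, adjusted p = 0.174). Reg1 was at 102, 66.3 and 115 CPM and at 99.8, 27.4 and 256 CPM with cytokines (log2 0.43, SE 0.60, adjusted p = 0.551). For these genes, as for Reg3g, treated replicate 3 lay above and treated replicate 2 below every untreated library. Reg2 was at 111, 45.5 and 74.0 CPM untreated and at 66.9, 18.8 and 180 CPM treated (log2 0.20, SE 0.60, adjusted p = 0.784). Reg3a was at 8.06, 2.87 and 6.50 CPM and at 2.75, 1.67 and 13.6 CPM (log2 0.05, SE 0.70, adjusted p = 0.96). Reg3d was at 4.21, 1.15 and 2.06 CPM and at 1.29, 0.309 and 4.36 CPM (log2 -0.33, SE 0.69, adjusted p = 0.697), its lowest value resting on 17 counts. The 95% intervals of the 5 genes reach from log2 -0.33 to 2.29 for Reg3b and from -1.84 to 1.19 for Reg3d, so a p that misses the threshold does not show that these genes stayed level.

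Treated islets labelled bKO were the least even group for the whole family. From replicate 2 to replicate 3 the levels differed 8.16-fold for Reg3a, 8.65-fold for Reg3g, 8.76-fold for Reg3b, 9.33-fold for Reg1, 9.54-fold for Reg2 and 14.1-fold for Reg3d. The summed acinar markers were at 1688, 958 and 3818 CPM in replicates 1, 2 and 3 of this group, in the same order as the Reg genes. Without replicate 3 the fitted cytokine changes in this genotype were log2 -0.58 for Reg1, -0.85 for Reg2, -1.41 for Reg3a and -1.67 for Reg3d (adjusted p = 0.0427 for Reg3d, called lower). Without replicate 2, Reg3b was called higher (log2 1.51, adjusted p = 0.00857). In this genotype 12 of the 27 acinar markers fell and 1, the transcription factor Nr5a2, rose (median log2 -0.92). Over all genes tested, 6647 of 19800 were called lower and 28.8% higher (median log2 -0.06). The median of the 6 Reg genes was log2 0.32.

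Between genotypes without cytokines, all 6 tested Reg genes stood lower in islets labelled bKO, and none passed the threshold. Fitted differences were 3.46-fold for Reg2, 3.69-fold for Reg1, 4.01-fold for Reg3g, 4.10-fold for Reg3b, 4.23-fold for Reg3d and 5.98-fold for Reg3a. For each gene the highest of the 3 libraries labelled bKO was below the lowest control library, which held for 7.94% of all genes in that direction. Reg3b, for example, was at 231 to 470 CPM in controls and 57.0 to 112 CPM in islets labelled bKO, and Reg3g at 16.2 to 34.2 and 4.76 to 7.66 CPM.

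The edgeR test called 0 of the 6, beside 15 of the 19800 genes (0.0758%), all of those higher. Reg3a was at log2 -2.58 (SE 0.72, adjusted p = 0.436) and Reg2 at -1.79 (SE 0.62, adjusted p = 0.665), and DESeq2 and limma-voom called 0 Reg genes as well. Over all genes DESeq2 called 128 here. All 6 Reg genes had an unadjusted p under 0.05 in edgeR (0.00388 to 0.0139), as did 2.53% of all genes in that direction. In a fit of the 2 untreated groups alone, which leaves out the uneven treated islets from the estimate of spread, 4 Reg genes were called lower (Reg3g adjusted p = 0.0166, Reg3b 0.0209, Reg1 0.0354, Reg2 0.0354) and Reg3a (0.056) and Reg3d (0.066) were not. Over all genes, 121 were called in that fit, 91 higher and 30 lower. Acinar markers stood lower in untreated islets labelled bKO as well. Of the 27, 0 were called by edgeR and 17 had an unadjusted p under 0.05, all lower (median log2 -1.0, against -2.02 for the 6 Reg genes and -0.01 for all genes), with summed levels of 5634 to 9197 CPM in controls and 2600 to 4228 CPM in islets labelled bKO. With the acinar mean as a term in the fit the differences were smaller, from log2 -0.35 for Reg1 to -1.06 for Reg3a, with 0 called. The acinar mean was 5.36 to 6.00 in untreated controls and 4.41 to 5.07 in untreated islets labelled bKO (log2 CPM). With no overlap between these groups, the label and acinar level cannot be told apart in that fit.

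With cytokines, the genotypes overlapped for every tested Reg gene. Fitted differences of islets labelled bKO from controls ran from log2 0.33 for Reg1 (95% interval -0.99 to 1.64, adjusted p = 0.794) to 1.57 for Reg3a (-0.04 to 3.19, adjusted p = 0.291). None was called by edgeR, and 0 had an unadjusted p under 0.05, against 17.8% of all genes in either direction. DESeq2 and limma-voom also called 0 Reg genes. Over all genes edgeR called 0.232% here, and DESeq2 called 705 genes. Without treated replicate 3 of the islets labelled bKO, the differences of Reg1, Reg2, Reg3b, Reg3d and Reg3g turned negative (log2 -0.68 for Reg1).

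**Figure D2:**
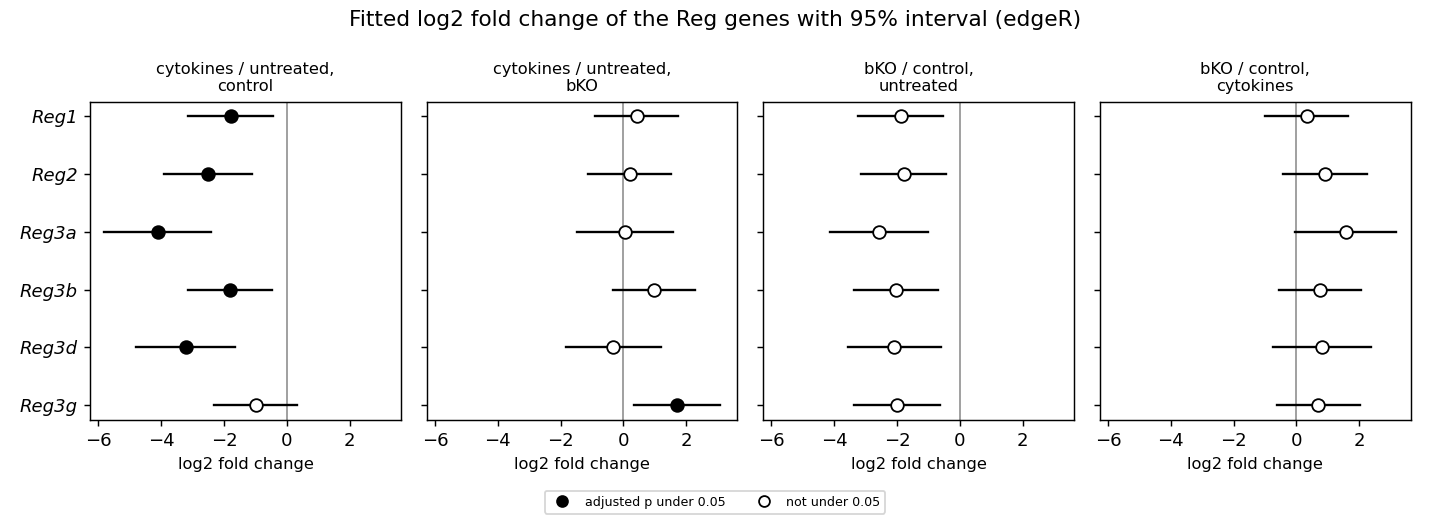
Fitted log2 fold change (horizontal axis) of each tested Reg gene in 4 comparisons, with 95% intervals as lines and filled points for an adjusted p under 0.05 (edgeR). Filled points appear for 5 genes with cytokines in control islets and for Reg3g in islets labelled bKO, and the intervals of all 6 genes lie below 0 between untreated genotypes without an adjusted p under 0.05.

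For all 6 genes the fitted change with cytokines lay above that of controls in the islets labelled bKO, but this difference did not pass the threshold. The difference of the 2 changes was largest for Reg3a (log2 4.15, SE 1.02, unadjusted p = 0.00176, adjusted p = 0.272) and smallest for Reg1 (log2 2.21, SE 0.86, unadjusted p = 0.0252, adjusted p = 0.407). The edgeR test called 0 of the 6 and 0 of all 19800 genes (0%). Unadjusted p was under 0.05 for the 6 Reg genes and for 4.84% of all genes in that direction. DESeq2 called Reg3a alone among the Reg genes (adjusted p = 0.0407), beside 186 of all genes, and limma-voom called 0 Reg genes. With the acinar mean as a term in the fit the differences were between log2 0.03 for Reg1 and 1.89 for Reg3a, and without treated replicate 3 of the islets labelled bKO they were 1.2 for Reg1 and 2.70 for Reg3a. The acinar markers had a median difference of responses of log2 1.44, with 0 called and 13 of 27 higher at an unadjusted p under 0.05. The comparison between untreated genotypes and the difference share the untreated libraries, so they are not independent of each other.

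Shares of the Reg counts of each library describe the make-up of the family, and the total of Reg RNA cancels in them. With cytokines Reg3b and Reg3g held more and Reg2 and Reg3d less in both genotypes, without overlap. Reg3g held 2.40% of the Reg counts in untreated controls (SD 0.062, n = 3) and 4.56% with cytokines (SD 0.72). In islets labelled bKO it held 2.35% (SD 0.28) and 5.06% (SD 0.15). The treated and untreated libraries did not overlap in either genotype (exact permutation test, two-sided, p = 0.1 in each, the smallest that 3 against 3 can give). Reg3b also took more with cytokines, 33.9% and 37.7% in controls and 31.6% and 41.5% in islets labelled bKO, again without overlap (exact p = 0.1 in each).

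Reg2 went from 26.4% (SD 3.9) to 17.8% (SD 1.9) in controls and from 27.7% (SD 3.8) to 21.0% (SD 0.55) in islets labelled bKO. Reg3d went from 1.02% to 0.440% and from 0.856% to 0.422%. Neither gene overlapped between treated and untreated libraries (exact permutation p = 0.1 in each case). Reg3a went from 3.17% to 0.763% in controls without overlap, and from 2.06% to 1.44% with overlap in islets labelled bKO. Reg1 held 33.1% and 38.8% in controls and 35.4% and 30.6% in islets labelled bKO, and overlapped in both. Between treated genotypes, islets labelled bKO held less Reg1 and more Reg2 and Reg3b than controls without overlap (exact permutation p = 0.1 for each), and between untreated genotypes less Reg3a and Reg3b (exact permutation p = 0.1 for each). Over the same treated libraries, all Reg genes together took from 0.00877% to 0.0765% of the library's counts. Shares sum to a fixed total, so a higher share of Reg3b and Reg3g lowers the others. This measure was chosen after the data were seen, and 24 such comparisons were made.

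**Figure D3:**
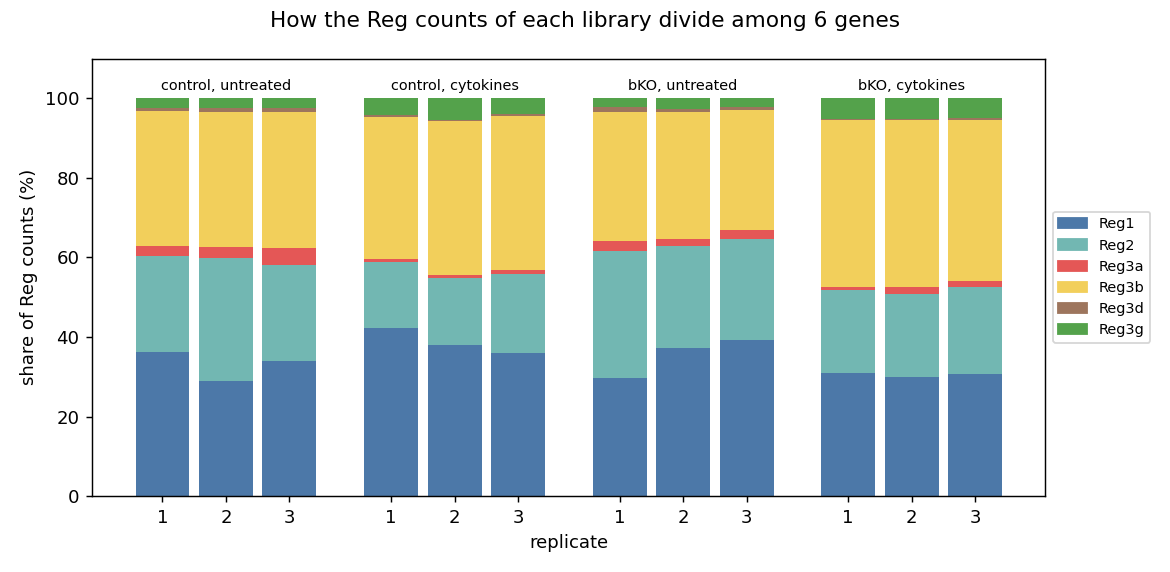
Share of the Reg counts of each library (vertical axis, percent) held by each of 6 genes, with replicates 1 to 3 of each group side by side. Reg3g takes 2.17% to 2.68% in the 6 untreated libraries and 4.05% to 5.39% in the 6 treated ones, although the total of Reg counts varied widely among the treated libraries.

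Set against the mean of the acinar markers in the same library, the Reg genes were also lower in untreated islets labelled bKO. The differences in log2 level relative to that mean were -0.84 (Reg1), -0.86 (Reg2), -0.97 (Reg3g), -1.03 (Reg3b), -1.23 (Reg3d) and -1.52 (Reg3a), all without overlap (exact permutation p = 0.1 for each gene, the smallest possible). For Reg3b the relative level was 2.62 (SD 0.24, n = 3) in controls and 1.59 (SD 0.16) in islets labelled bKO. The acinar mean itself did not overlap between these groups (5.36 to 6.00 in controls, 4.41 to 5.07 in islets labelled bKO, log2 CPM). The share of all genes without overlap on this scale was not computed, so the lack of overlap has no background to be set against.

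With cytokines, Reg3g was higher relative to the acinar mean in each treated library than in any untreated library of its genotype. In controls it was at -1.37, -1.34 and -0.88 untreated and at -0.50, 0.56 and -0.05 with cytokines, and in islets labelled bKO at -2.13, -2.16 and -2.20 and at 0.52, -0.40 and 0.59 (exact permutation p = 0.1 in each genotype). In control islets Reg3a (mean difference -1.73) and Reg3d (-0.93) were lower on this scale without overlap, and Reg1, Reg2 and Reg3b overlapped. In islets labelled bKO, Reg1 (1.09) and Reg3b (1.68) were higher without overlap, and Reg2, Reg3a and Reg3d overlapped. A fall of the acinar mean raises every gene on this scale, also one whose own level is unchanged. Reg3g itself had a fitted change of log2 -0.99 in controls. In islets labelled bKO the acinar mean was 4.41 to 5.07 untreated and 2.63 to 4.75 with cytokines (log2 CPM). The share of all genes that are higher on this scale was not computed. With the acinar mean as a term in the edgeR fit, the calls in control islets turned to 3 higher (Reg1 log2 1.62, Reg3b 1.44, Reg3g 2.23) and 0 lower. All 6 genes were called higher in islets labelled bKO in that fit (Reg3g log2 2.92, adjusted p = 9.01e-06). Of all 19800 genes, it called 3562 higher and 4431 lower in controls. In islets labelled bKO it called 4807 of all genes higher and 5988 lower. The acinar mean itself was 5.36 to 6.00 in untreated and 3.22 to 3.81 in treated control libraries (log2 CPM). With no overlap between these groups, treatment and acinar level cannot be told apart in that fit.

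**Figure D4:**
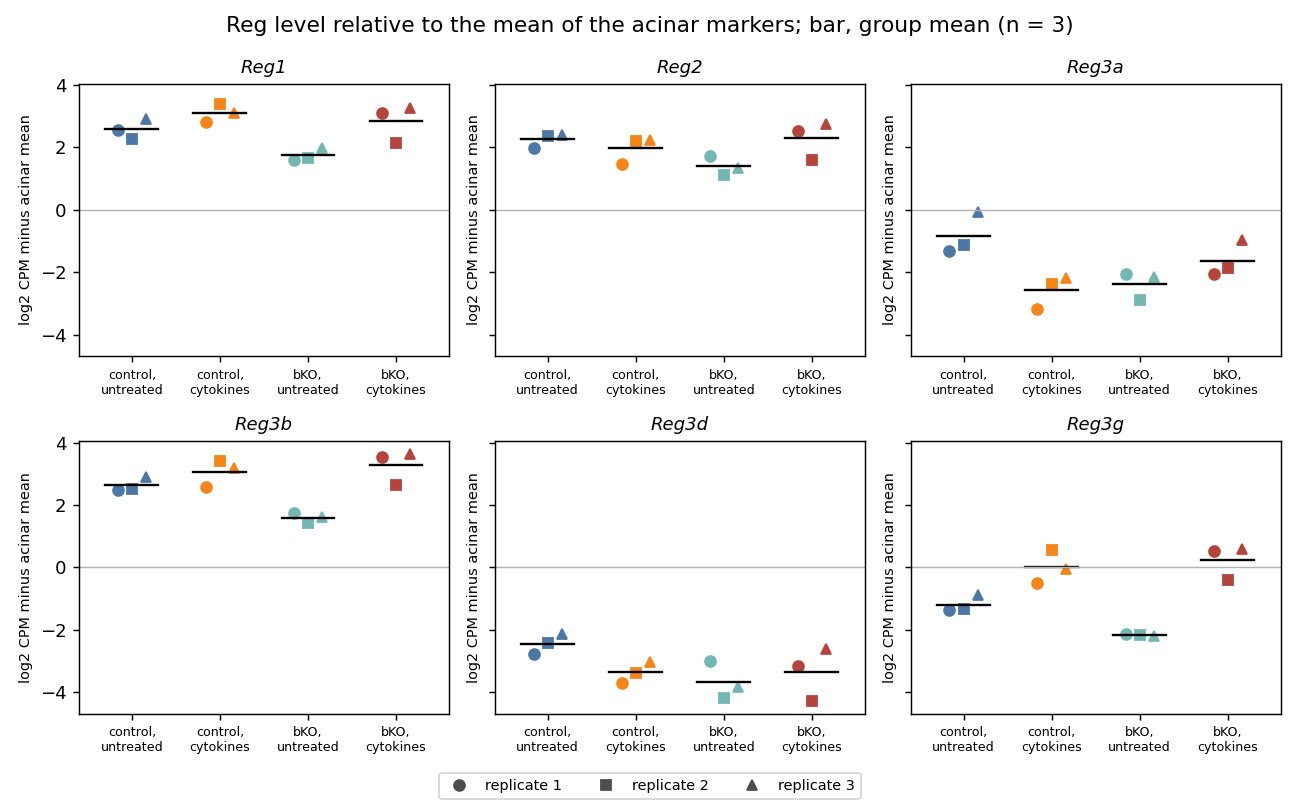
Log2 CPM of each Reg gene minus the mean log2 CPM of the acinar markers in the same library, with a bar at the mean of 3 libraries. Reg3g lies between -2.20 and -0.88 in the 6 untreated libraries and between -0.50 and 0.59 in the 6 treated ones, and every gene is lower in untreated islets labelled bKO than in untreated controls. The acinar mean itself differed between these groups, and a lower acinar mean raises every gene on this scale.

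Across the 12 libraries the levels of the Reg genes were correlated with each other and with most acinar markers. The median Pearson correlation of log2 CPM of a Reg gene with the other 5 was 0.78 for Reg3g and 0.87 to 0.95 for the rest. After each group's mean was subtracted it was 0.91 to 0.98. With the 27 acinar markers the median correlation of levels was 0.53 for Reg3g and 0.78 to 0.90 for the other Reg genes. Single markers departed from this, the lowest correlation being 0.0038 for Reg3g and -0.16 to -0.41 for the others. After each group's mean was subtracted, the median correlation with the acinar markers was 0.86 to 0.92, near that within the family. These are descriptions over 12 libraries in 4 groups that share depth, treatment and acinar content. Among 13199 genes at a mean of 1 CPM or more, the genes most like Reg1 by level were Erp27 (r = 0.98), which encodes a protein of the endoplasmic reticulum, Reg3b (0.97), Cabp2 (0.97), Clps, the colipase gene (0.97), and Pnliprp1, a lipase relative (0.96). Erp27 was also among the 5 genes most like Reg2, Reg3b and Reg3d. Reg3a was most like Ctrb1, a chymotrypsinogen gene (0.98), and Tff2, a trefoil peptide gene (0.97). Reg3g was most like Reg3b (0.94), the trypsinogen gene Try10 (0.89), Pnliprp1 (0.89) and Hsd17b13 (0.88). Within groups the gene most like Reg3b and Reg3g was Prss2, a trypsinogen gene (0.99 for each).

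The Reg genes were among the least even genes of the table. The biological coefficient of variation, edgeR's estimate of the spread within groups beyond counting error, was 0.49 for Reg3b, 0.50 for Reg1, Reg2 and Reg3g, and 0.58 for Reg3a and Reg3d. The median was 0.15 over all genes tested and 0.34 over the acinar markers, and 97.8% to 98.9% of all genes had a lower value. With this spread, 3 libraries a group leave the standard error of a log2 difference at 0.60 to 0.78 for these genes.

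For genes that act upstream of the family, 0 changes with cytokines were called different between genotypes by edgeR, as were 0 of all 19800 genes. At an unadjusted p under 0.05, 2 were higher and 2 lower, beside 959 higher and 1203 lower over all 19800 genes. Of 21 tested genes of the list of inducers, receptors and signal relays (24 listed), 11 rose and 3 fell with cytokines in controls, and 12 rose and 3 fell in islets labelled bKO (median log2 0.63 and 0.52). Over all genes tested 60.6% were called in controls and 62.4% in islets labelled bKO, so the share called in this list is near the background. Il6, the classical inducer of Reg genes, rose from 6.01 CPM (SD 1.8, n = 3) to 157 (SD 18) in controls (log2 4.71, SE 0.24, adjusted p = 2.72e-08) and from 6.36 (SD 1.1) to 158 (SD 28) in islets labelled bKO (log2 4.64, SE 0.24, adjusted p = 2.88e-08). Jak2, a kinase of the receptors, rose by log2 1.68 and 1.75, Stat3 by 1.13 and 0.87, and Il6st, which encodes gp130, by 0.66 and 0.64. Il6ra, the ligand-binding chain for interleukin-6, fell by log2 1.71 and 1.72. Il22ra1, the receptor chain for interleukin-22, rose in islets labelled bKO (log2 2.94, SE 0.47, adjusted p = 0.000225), and in controls its value was 0.92 (SE 0.44, adjusted p = 0.0906). The difference between these 2 changes did not pass the threshold (adjusted p = 0.361). Extl3, the proposed Reg receptor, stood at 72.5 to 84.7 CPM in group means with no call. Il22 and Il17a did not pass the filter, with 2 to 22 and 0 to 2 counts per group.

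Targets of STAT3 in the acute phase response mostly rose with cytokines in both genotypes. Of 25 tested (26 listed), 22 rose and 1 (Crp) fell in controls, with a median log2 of 2.98, and 22 rose and 0 fell in islets labelled bKO, with a median of 2.10. Of all genes tested, 26.8% were called higher in controls and 28.8% in islets labelled bKO, with medians of log2 -0.10 and -0.06. The list was chosen with earlier results of these data known, so its counts are not an independent test. Saa3, a serum amyloid gene, rose by log2 11.08 (SE 0.52) and 10.19 (SE 0.47), and Lcn2, a siderophore-binding protein gene that, like Reg3 genes, answers to STAT3 in epithelia, by 3.06 (SE 0.28) and 3.96 (SE 0.29). Beside 0.0758% of all genes, 4 of the 25 targets were called higher in islets labelled bKO between untreated genotypes. These 4 were opposite in sign to the fitted differences of the Reg genes. These were the fibrinogen genes Fga (log2 5.85, SE 0.57), Fgb (4.58, SE 0.47) and Fgg (6.01, SE 0.64) and the protease inhibitor gene Serpina3n (3.54, SE 0.33), with an adjusted p of 0.00186 to 0.0019. Socs3, the feedback inhibitor of this pathway, was at 83.8 CPM (SD 13, n = 3) and 139 CPM (SD 25) there and was not called (log2 0.73, SE 0.16, adjusted p = 0.251).

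Other secreted antimicrobial and trefoil genes mostly rose as well. Of 16 tested (22 listed), 10 rose and 2 fell with cytokines in controls and 11 rose and 0 fell in islets labelled bKO, with medians of log2 1.89 and 2.64, beside the same 26.8% and 28.8% of all genes called higher. S100a9, a calprotectin subunit gene, rose by log2 9.14 (SE 0.34) and 8.94 (SE 0.32). Tff2, among the genes most like Reg2, Reg3a and Reg3d above, fell in controls. Its level was 25.1 CPM (SD 11, n = 3) in untreated controls, 3.82 (SD 1.4) with cytokines, 7.63 (SD 3.1) in untreated islets labelled bKO and 6.14 (SD 4.5) in treated ones, and its fall in controls was called (log2 -2.70, SE 0.54, adjusted p = 0.00113). Markers of other cell types were compared between the untreated genotypes beside these results. There 0 of 15 ductal, 11 beta, 7 alpha, 6 delta and PP, 10 endothelial, 12 macrophage, 3 T and B cell and 10 stellate markers were called by edgeR, with medians from log2 -0.18 to 0.14. Over all genes 0.0758% were called there, so 0 in lists of this length is near the background. At an unadjusted p under 0.05, 3 ductal, 3 beta and 1 T and B cell marker were lower, against 2.53% of all genes. With cytokines in controls, 8 of the 11 beta, 6 of the 7 alpha, 5 of the 6 delta and PP and 10 of the 10 endothelial markers fell, against 33.9% of all genes called lower. In the same comparison 10 of the 12 macrophage markers rose and 0 fell, against 26.8% of all genes called higher. Of the ductal markers 5 rose and 5 fell, of the stellate markers 1 rose and 1 fell, and of the T and B cell markers 1 rose and 1 fell.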

How the data were processed

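Islet RNA was measured by RNA-seq in 12 libraries. The authors deposited whole-number counts per gene, 47064061 to 107515565 per library. The submitters' processing notes name FastQC 0.11.7, cutadapt 1.16, STAR 2.5.2a, featureCounts 1.6.2, DESeq2 1.30.0 and GRCm38. The sources used here do not give the annotation release or the strand setting. Groups come from the labels.

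Counts of 19800 genes that passed edgeR's filterByExpr were scaled by TMM and fitted with 1 coefficient per group over all 12 libraries (edgeR 4.0.16 quasi-likelihood, R 4.3.3, Benjamini-Hochberg threshold 0.05). CPM are relative to the TMM-scaled totals, and log2 CPM use a prior of 0.5 counts. Levels relative to acinar markers and shares were tested by exact two-sided permutation. DESeq2 1.42.0, limma-voom (limma 3.58.1), other scalings and filters, an acinar covariate, replicate blocks and omission of each library were alternatives. Named like genes are the 5 with the highest Pearson r among genes at 1 CPM or more.

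The fit was also run on simulated data with changes planted in genes drawn at random, mostly of lower spread than the Reg genes. That run does not show what the fit can detect for this family. Members and gene lists were chosen with earlier results of these data known. Replicate numbers were taken from the titles. Same-numbered libraries of a genotype had correlations of deviations of -0.124 to 0.26 in 6 pairs, 2 of them over 0.1, so numbers were not taken to pair libraries.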

Additional observations from a re-analysis of the deposited data

How the results depend on the processing

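The falls of Reg2, Reg3a and Reg3d with cytokines in control islets kept direction and call in each omission of 1 library, and the called genes there numbered 3 to 5 over the omissions. Between untreated genotypes all 6 fitted differences stayed negative over the omissions, but the acinar covariate moved them further than any omission did (below). The cytokine changes in islets labelled bKO were the least stable, with 0 to 2 Reg genes called over the omissions and ranges of log2 -0.58 to 0.97 for Reg1, -0.85 to 0.74 for Reg2, -1.41 to 0.56 for Reg3a and -1.67 to 0.29 for Reg3d. The negative ends come from leaving out treated replicate 3. Between treated genotypes the ranges were -0.68 to 0.77 for Reg1, -0.13 to 1.37 for Reg2, -0.22 to 1.2 for Reg3b, -0.53 to 1.31 for Reg3d and -0.26 to 1.28 for Reg3g, and relative to acinar markers -0.47 to 0.081 for Reg1, -0.027 to 0.54 for Reg3b, -0.35 to 0.48 for Reg3d and -0.014 to 0.55 for Reg3g. Reg3d relative to acinar markers ranged from -0.052 to 0.78 with cytokines in islets labelled bKO. Over all genes the calls ranged from 12 to 59 between untreated genotypes, from 4 (without treated control replicate 3) to 444 (without treated bKO replicate 1) between treated genotypes, and from 0 to 3 for the difference of responses.

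Other settings moved mainly the counts of the genotype comparisons. With no filter, 32 genes were called between untreated genotypes (15 in the fit reported), 190 between treated genotypes (46) and 1 for the difference (0). DESeq2 called 128, 705 and 186, and 1 Reg gene for the difference. In a fit of only the groups compared, 121 genes and 4 Reg genes were called between untreated genotypes, 0 genes between treated genotypes and 0 Reg genes with cytokines in islets labelled bKO. In that last comparison scaling by library totals alone, which shifts the median of all genes by log2 -0.229, called 0 Reg genes, with Reg2 at -0.042 and Reg3a at -0.19. Limma-voom also called 0 there, with Reg1 at -0.067, Reg2 at -0.26 and Reg3a at -0.46, and gave -0.16 for Reg1 between treated genotypes. The cause of these differences was not tested.

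With the replicate number as a block over all groups, 0 Reg genes were called with cytokines in islets labelled bKO (Reg2 -0.027, Reg3a -0.33), and between treated genotypes 7 genes were called and Reg1 was at -0.099. With a replicate block within genotype, 0 Reg genes were called with cytokines in islets labelled bKO (Reg1 -0.044, Reg2 -0.26, Reg3a -0.38). The numbers share no stated mouse, so a call lost under the block is not read as a weaker effect.

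With the acinar level as a covariate, 7993 genes (12002 in the fit reported) and 3 Reg genes were called with cytokines in controls, and the values were 1.62 for Reg1, 0.70 for Reg2, 1.44 for Reg3b, 0.47 for Reg3d and 2.23 for Reg3g, while Reg3a stayed negative at -0.57 and lost its call (adjusted p = 0.516). In islets labelled bKO 10795 genes (12358 in the fit reported) and 6 Reg genes were called, with Reg3d at 1.02. Between treated genotypes 101 genes were called, with Reg1 at -0.32 and Reg3d at -0.024. Between untreated genotypes the values were -0.35 for Reg1, -0.46 for Reg2, -1.06 for Reg3a, -0.61 for Reg3b, -0.58 for Reg3d and -0.54 for Reg3g, and for the difference of responses 0.033, 0.70, 1.89, 0.75, 0.55 and 0.69 in the same order, with 0 called in either (edgeR). Acinar level did not overlap between the untreated genotypes, so the label and acinar level cannot be told apart there. Relative to the median of the acinar markers Reg3d was at -0.033 between treated genotypes, and relative to enzyme genes alone at -0.029. Depth limits only Reg4, and Reg3d at its lowest of 17 counts, while for the other members the spread between 3 libraries a group sets the error.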
